A study of Mus musculus with 2 samples.

Results

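GABAergic amacrine cells are inhibitory interneurons of the inner retina, and 53 barcodes met a rule for them among the 30924 cell barcodes of 1 WT and 1 ND6 mutant (MT) library of retinal cells. Both libraries were made by droplet-based 3′ scRNA-Seq, in which every captured RNA is counted once as a unique molecular identifier (UMI). A barcode was kept if it held more than 400 UMIs from more than 200 genes and if mtDNA gave no more than 20% of them. It was called a GABAergic amacrine cell when it held at least 2 UMIs of *Gad1* plus *Gad2*, no fewer of these than of *Slc6a9*, and at least 2 of *Snhg11*, *Tfap2a*, *Tfap2b*, *Pax6*, *Slc32a1*, and *Meg3*. This gave 5 of 12529 WT barcodes and 48 of 18395 MT barcodes. The name stands for this rule below, since rod markers outnumbered amacrine markers in 35 of the 48 MT cells and 6 of them held none of *Tfap2a*, *Tfap2b*, and *Slc32a1*.

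Both libraries came from male C57BL/6J mice aged 7 months, WT in one and ND6 in the other by their labelled genotype. As the study describes the model, the mutant carried the P25L change of ND6, a complex I subunit encoded by mtDNA, in homoplasmy and in the whole body. Whether a library holds 1 mouse or several was not stated, and no treatment was given to either group. With 1 library per genotype, no difference could be set against the spread between animals, so the values below carry no test, and their 95% intervals cover counting error only.

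Amacrine cells shape the signals that pass from bipolar cells to retinal ganglion cells. The GABAergic kind makes GABA from glutamate with the decarboxylases GAD67 and GAD65, loads it into vesicles with the transporter VGAT, and takes it up again through transporters of the plasma membrane. The transcription factors AP-2α and AP-2β mark amacrine cells as a class, and many subtypes are known from the peptide or second transmitter that they carry beside GABA. Glycinergic amacrine cells, which carry the glycine transporter encoded by *Slc6a9*, are the class most like them.

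The cells were chosen on their *Gad1* and *Gad2* counts, so these describe the selection and are no result. In the 5 WT cells, ordered from the fewest to the most UMIs, *Gad1* (GAD67) gave 14, 11, 15, 10, and 39 UMIs and *Gad2* (GAD65) gave 4, 4, 1, 7, and 1. Among the 48 MT cells, *Gad1* ranged from 0 to 30 UMIs with a median of 6, and *Gad2* from 0 to 9 with a median of 2. *Gad1* was detected in 45 MT cells and both genes in 38. All 5 WT cells thus stood well inside the limit, whereas 8 MT cells held exactly 2 *Gad1* plus *Gad2* UMIs and 6 MT cells held exactly 2 of the 6 further genes. Just outside it, with 1 such UMI and all else met, were 3 WT and 72 MT barcodes. A further 8 WT and 20 MT barcodes had the *Gad1* and *Gad2* counts but under 2 of the 6 genes.

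Both genes lie on chromosome 2, and their upstream sequence is shown with that of *C1ql2*, which ranked highest among the leading genes named below. *Gad1* is annotated at chr2:70553072-70602014 and *Gad2* at chr2:22622205-22693874, both on the plus strand, and *C1ql2* at chr1:120340582-120343174, also on the plus strand (mm10). The stretches are the bases before the RefSeq transcription start (build GRCm38.p6), read 5′ to 3′ on the plus strand and ended where an annotated exon begins. That of *Gad1* lies inside the annotated gene, which starts further upstream, but in none of its exons. They span chr2:70561879-70562041 for *Gad1*, chr2:22622077-22622204 for *Gad2*, and chr1:120340332-120340581 for *C1ql2*. Capitals mark a match to GCCNNNGGC, the palindromic core of the site that AP-2 factors bind, which reads the same on both strands. A match is a run of these letters only, whether or not a factor binds there.

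Gad1: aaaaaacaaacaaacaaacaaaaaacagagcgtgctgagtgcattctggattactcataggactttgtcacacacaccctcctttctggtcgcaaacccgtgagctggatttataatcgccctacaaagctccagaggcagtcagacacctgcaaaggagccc
Gad2: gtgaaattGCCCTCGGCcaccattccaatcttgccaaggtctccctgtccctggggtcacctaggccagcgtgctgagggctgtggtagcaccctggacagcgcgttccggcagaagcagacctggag
C1ql2: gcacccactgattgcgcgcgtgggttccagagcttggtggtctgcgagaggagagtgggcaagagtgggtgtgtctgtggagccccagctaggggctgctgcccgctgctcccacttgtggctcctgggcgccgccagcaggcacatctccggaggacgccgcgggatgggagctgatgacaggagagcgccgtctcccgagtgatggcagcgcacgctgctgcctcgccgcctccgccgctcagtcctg

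The core stood once in the stretch of *Gad2* and in neither other stretch. Over the full 250 bases upstream, it was found in 2 of the 16 leading genes with a RefSeq window, *Gad2* and *Pax6*, and in 3665 of 27025 genes in all (13.6%). The leading genes therefore held it at 12.5%, close to the share of all genes.

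The share of kept barcodes that met the rule was 0.0399% in WT (exact Clopper-Pearson interval 0.0130% to 0.0931%) and 0.261% in MT (0.192% to 0.346%), 6.54 times as high. The mtDNA limit kept 12529 of 23176 WT and 18395 of 22256 MT barcodes that met the limits on UMIs and genes, so it set the denominators unequally. Without it, 5 WT and 57 MT barcodes met the rule (0.0216% and 0.256%), 11.9 times as high in MT. Glycinergic amacrine cells, chosen in the same way with *Slc6a9* above *Gad1* plus *Gad2*, made up 0.551% of WT (69 barcodes) and 0.864% of MT barcodes (159). With every barcode of at least 1000 UMIs thinned to 1000 UMIs, 3 of 10966 WT and 12 of 14266 MT barcodes met the rule (0.0274% and 0.0841%). The log2 ratio of the thinned shares was 1.62 (-0.27 to 4.09), an interval that held 0, against 2.71 (1.39 to 4.40) for all kept barcodes. Without cells that held at least 2 UMIs of bipolar, ganglion, cone, or Müller markers, 2 WT and 7 MT cells were left, 0.0160% and 0.0381% of kept barcodes. The log2 ratio of these shares was 1.25 (-1.14 to 4.56), and its interval held 0 too. Rod markers were not asked for in that step, and they took 2.85% of UMIs in the 7 MT cells. Barcodes of 10 to 100 UMIs, taken as a measure of free RNA, held *Gad1* plus *Gad2* at 4.42 CPM (counts per 1000000 UMIs) in WT, from 1 UMI, and at 84.8 CPM in MT, from 33 UMIs. They held *Snhg11* at 17.7 and 398 CPM. An MT cell with the *Gad1* and *Gad2* level of this free RNA would hold a median of 0.727 and at most 3.12 UMIs of the pair at the depths found. Since the rule asked for at least 2 of these UMIs, the counts of the chosen cells are no check on this. The part of free RNA in the shares was not tested. A share of barcodes also depends on which cells survived dissociation, which was not tested.

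The 5 WT cells held 43561 UMIs and the 48 MT cells held 518201. A WT cell had between 7533 and 12237 UMIs (median 8057) and an MT cell between 2025 and 36824 (median 8572), so the depths overlapped. The median of all kept barcodes was 1878 UMIs in WT and 1416 in MT. Between the libraries, 59 kept barcodes were shared, and none of the 53 cells had its barcode at 10 or more UMIs in the other library. No doublet caller was run.

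*Slc32a1* and *Tfap2b* were found in every WT cell but not in every MT cell. *Slc32a1* (VGAT) was found in 5 of 5 WT cells, with 2, 3, 2, 2, and 4 UMIs, and in 36 of 48 MT cells. *Tfap2b* (AP-2β) gave 19, 7, 19, 37, and 4 UMIs in the WT cells and was found in 28 MT cells, with a median of 1 and a highest count of 41. At least 1 of *Tfap2a* and *Tfap2b* was found in 37 of 48 MT cells, and 6 MT cells held neither of them nor *Slc32a1*. These 3 genes are among the 6 of the rule, so their presence is partly fixed by it and is no independent check of the label. Of all other kept barcodes, 0.711% in WT and 1.49% in MT held a *Slc32a1* UMI, at a lower depth.

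RNA of rods divided most of the MT cells from the WT cells. Summed over 6 genes, among them *Sag*, *Pdc*, *Gnat1*, *Nrl*, and *Nr2e3*, the rod markers reached 1561 CPM in the WT cells and 27570 in the MT cells, a log2 ratio of 4.14 (exact conditional interval 3.80 to 4.51). *Sag*, which encodes rod arrestin, gave 9 UMIs over the WT cells, from 0 to 4 in each, and between 0 and 304 in the MT cells, with a median of 18.5 and a log2 ratio of 4.62 (3.70 to 5.75). In CPM, 38 of 48 MT cells lay above the highest WT cell for the rod list and 10 within the WT range. In 35 MT cells rod markers outnumbered the 5 amacrine markers (*Gad1*, *Gad2*, *Slc32a1*, *Tfap2a*, and *Tfap2b*), and in 0 of 5 WT cells. The plot of rod against amacrine marker RNA shows this divide cell by cell.

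**Figure D1:**
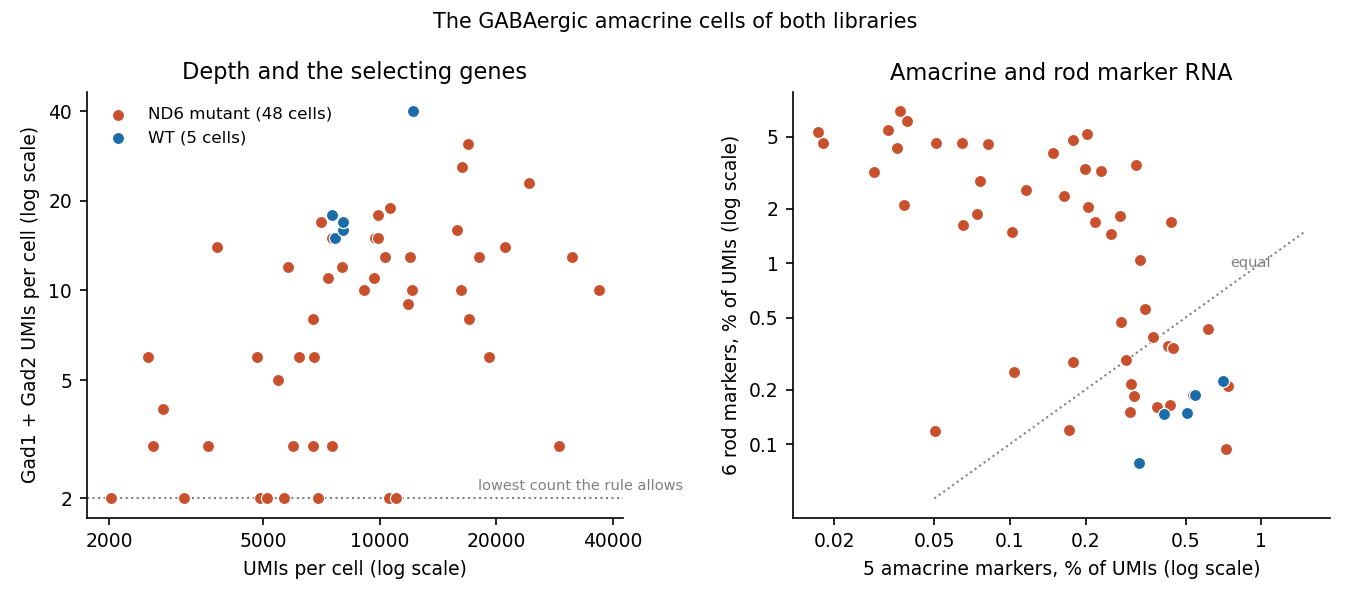
Gad1 plus Gad2 UMIs (vertical axis) against all UMIs per cell (left panel) and the share of UMIs from 6 rod markers (vertical axis) against that from 5 amacrine markers (horizontal axis, right panel), all on log scales, with 1 point per cell for 5 WT and 48 ND6 mutant cells. The WT cells lie below the line of equal shares, whereas 35 mutant cells lie above it.

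The barcodes of free RNA held rod markers at 37273 CPM in WT and 47176 in MT, and glycinergic amacrine cells at 20428 and 39230 CPM. The WT GABAergic cells were thus far below the free RNA of their own library. Cone, pigment epithelium, and Müller markers were also higher in the MT cells. All 4 cone markers, led by *Opn1sw* (the short-wave cone opsin) with 300 UMIs in 13 cells, summed to 563 UMIs in the MT cells and 0 in the WT cells. That is at least 8.41-fold higher for *Opn1sw*, with 3 counts as the floor for the sum of the WT cells. Pigment epithelium markers gave 164 UMIs in MT, 155 of them in 1 cell and 117 of them *Ttr* (transthyretin), and 0 in WT. At least 2 cone UMIs were found in 17 MT cells, and at least 2 Müller marker UMIs in 40 MT and 3 WT cells. Müller markers, most abundant in *Glul*, had a log2 ratio of 0.95 (0.42 to 1.53). Bipolar markers were at 138 CPM in WT and 251 in MT, horizontal markers at 68.9 and 77.2, and ganglion markers at 321 and 270, and the interval of each ratio held 0. Microglial markers were at 0 UMIs in both, and endothelial markers at 0 and 4. Whether this RNA sets the differences given below was not tested, and several are also given without the 29 MT cells in which rod markers took more than 1% of UMIs.

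By the ratio of these cells over all other kept barcodes, the lower of both libraries being ranked, the 20 leading genes with at least 100 UMIs included *C1ql2*, *Gad1*, *Gad2*, *C1ql1*, *Id4*, *Tfap2b*, *Cartpt*, *Slc32a1*, *Cxcl14*, *Syt7*, *Nrxn2*, *Pcdh7*, *Elavl3*, *Pax6*, *Cplx2*, *Uchl1*, *Snhg11*, *Synpr*, and *Ndrg4*. Of these, 6 are genes of the rule. *C1ql1* and *C1ql2* encode secreted proteins of the C1q family that act at synapses. *C1ql2* was at 390 CPM in the WT cells and 214 in the MT cells, against 0.367 and 1.15 in all other kept barcodes, and the log2 ratios of the cells over the rest were 10.05 and 7.54. In glycinergic cells it gave 0 UMIs in WT and 6 in MT. *Syt7* and *Cplx2* act in vesicle release, *Nrxn2* is a presynaptic adhesion protein, and *Elavl3* is a neuronal RNA-binding protein. A list ranked on the cells that it describes is no test of them.

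Within the cells, *Cartpt*, which encodes the CART peptide, varied over a wide range. The WT cells held 0, 4, 229, 84, and 12 *Cartpt* UMIs, so that 2 of 5 cells gave most of the sum of 329. Among the MT cells it was found in 15 of 48, from 0 to 202 UMIs, with 2 cells at 50 or more and a median of 0. Of all other kept barcodes, 2.17% in WT and 3.79% in MT held a *Cartpt* UMI, at a median depth of 1878 and 1416 UMIs. Thinned to 1000 UMIs, 3 of 5 WT and 6 of 48 MT cells still held one.

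The 4 cells with at least 50 *Cartpt* UMIs, a limit chosen after the values were seen, held *C1ql1*, *Tfap2b*, and *Pcp4* at like counts in both libraries. Other counts were less alike. Müller markers gave 0 and 1 UMIs in the 2 WT cells and 4 and 81 in the 2 MT cells, and *mt-Co1* gave 18 and 2 against 6 and 68. The 2 WT cells had 43 and 27 *C1ql1* UMIs, 19 and 37 *Tfap2b* UMIs, and 32 and 51 *Pcp4* UMIs. The 2 MT cells had 25 and 31 *C1ql1* UMIs, 19 and 22 *Tfap2b* UMIs, and 75 and 57 *Pcp4* UMIs. *Pcp4* encodes a small protein that binds calmodulin. Rod markers took between 0.149% and 0.339% of UMIs in all 4, so the 2 MT cells lay among those with little rod RNA. *C1ql1* alone was not bound to *Cartpt*, since the MT cell with the most *C1ql1* (49 UMIs) held 0 *Cartpt* UMIs. *Cartpt* is annotated at chr13:99898489-99901091 on the minus strand and *C1ql1* at chr11:102939264-102946688 on the minus strand.

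Genes of starburst and dopaminergic amacrine cells and several peptide genes other than *Cartpt* were at or near 0. *Chat* and *Slc18a3*, the starburst genes for making and loading acetylcholine, gave 0 UMIs in WT and 2 and 4 in MT. *Th*, the dopamine enzyme, gave 1 UMI in WT and 0 in MT. The peptide genes *Vip*, *Tac1*, and *Cck* gave 0 UMIs in WT and 4, 3, and 5 in MT, *Npy* gave 1 and 3, and *Sst*, *Penk*, *Crh*, and *Gal* gave 0 in both. With 3 counts as the floor, a count of 0 over the cells allowed up to 68.9 CPM in WT and 5.79 CPM in MT, so that a low level in the WT cells was not detectable at this depth. The heat map of single cells shows these rows nearly empty.

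**Figure D2:**
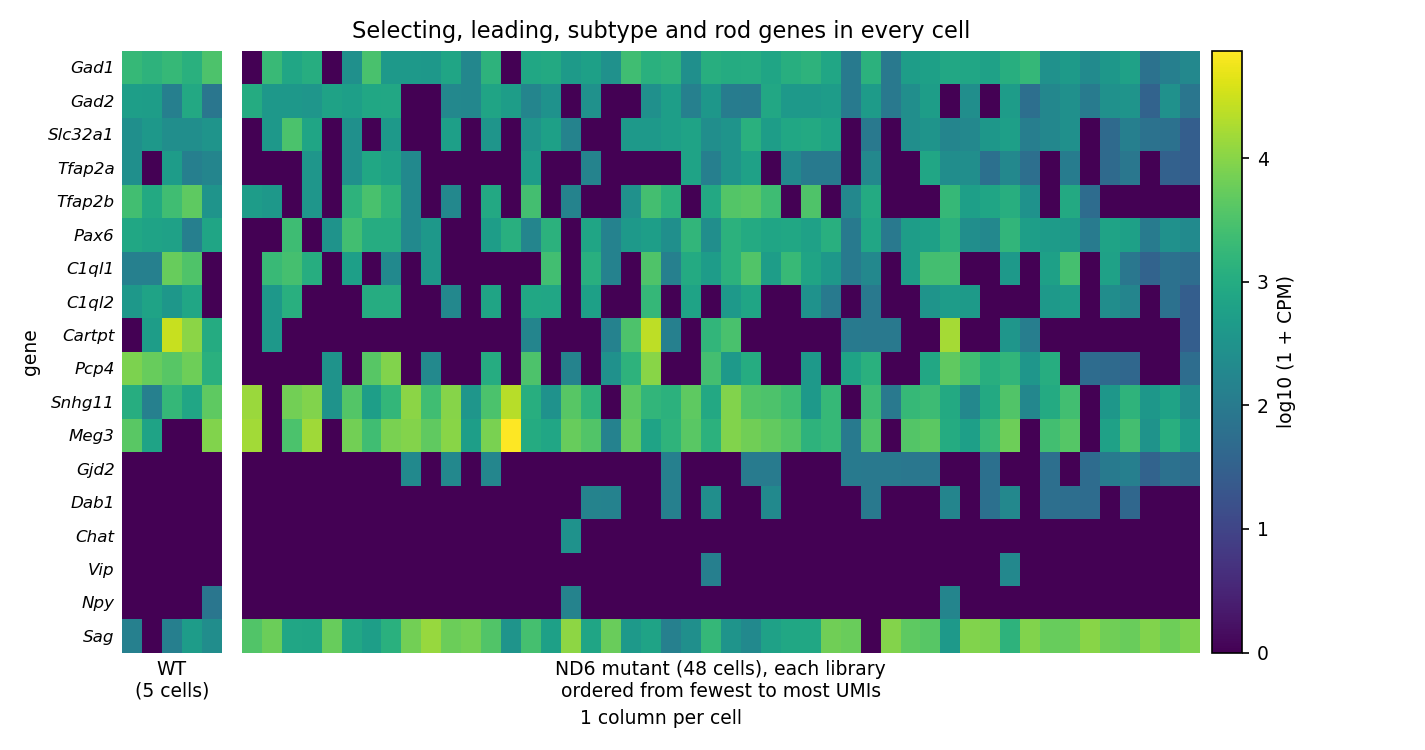
Level of 18 genes (rows) in every GABAergic amacrine cell (columns), as log10 of 1 plus CPM, for 5 WT cells at the left and 48 ND6 mutant cells at the right, each ordered by UMIs. Gad1 fills most columns, Cartpt is bright in a few, Chat, Vip, and Npy are nearly empty, and the rod gene Sag is brighter in most mutant than in the WT cells.

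Genes that are known from AII and other glycinergic amacrine cells were found in the MT cells. *Gjd2*, the gap junction protein connexin 36, gave 24 UMIs in 19 of 48 MT cells and 0 in WT, and *Dab1*, a signaling adaptor used as an AII marker, gave 18 UMIs in 13 MT cells and 0 in WT. Thinned to 1000 UMIs, 1 of 48 MT cells held a *Gjd2* UMI and 2 held a *Dab1* UMI. Both unthinned MT levels, 46.3 and 34.7 CPM, lay under the WT floor of 68.9 CPM, so a difference between the libraries was not detectable. *Gjd2* is no specific sign here, since 10.5% of all other MT barcodes held a *Gjd2* UMI. In glycinergic MT cells the genes stood at 96.9 and 88.0 CPM. *Slc6a9* itself gave 21 UMIs in 9 MT cells and 2 UMIs in 2 WT cells, or 40.5 and 45.9 CPM, against 511 and 835 CPM in the glycinergic cells of MT and WT. Both classes were chosen on *Slc6a9*, so this contrast is fixed by the rule.

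Genes were then compared between the libraries over the summed UMIs of the cells, as log2 of the ratio of MT over WT CPM. Of 5421 genes with at least 20 UMIs in all, 818 (15.1%) were at least 2-fold higher in MT and 684 (12.6%) at least 2-fold lower, and 558 had no UMI in the 5 WT cells. The median ratio was -0.15 with 0.5 UMIs added to each sum, and -0.16 with genes at 0 set to 3 counts. With genes at 0 in WT set apart, 40.5% of all genes were higher by any amount and 49.2% lower. These shares are the background for every count below.

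The list of GABA synthesis and handling (9 genes, of which 6 reached 20 UMIs) was at 4017 CPM in WT and 1943 in MT, a log2 ratio of -1.05 (-1.28 to -0.81). All 6 were lower and 2 of them, *Gad1* at -1.68 (-2.02 to -1.33) and *Slc6a11* at -1.32 (-2.12 to -0.45), past 2-fold, with a median over the list of -0.64. *Gad1*, *Gad2*, and *Slc32a1* belong to the rule, which let in MT cells at its limit, so their ratios are descriptions. The ratio of the list was -0.30 without the MT cells above 1% rod markers, and 0.12 (-0.44 to 0.71) without the cells that held bipolar, ganglion, cone, or Müller markers, where rod markers remained.

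Without the genes of the rule, the rest of that list, the GABA transporters and the enzymes of its breakdown, was at 1286 CPM in WT (971 to 1669) and 799 in MT (724 to 880), a log2 ratio of -0.69 (-1.09 to -0.26). *Slc6a11* (GAT3) gave 14 of its 16 WT UMIs in the WT cell with the most UMIs, and 76 UMIs in 32 MT cells. *Abat*, which breaks GABA down, had a ratio of -0.15 (-1.61 to 1.79). Cell by cell, the list lay between 124 and 2522 CPM in WT and between 0 and 3262 in MT, with 41 of 48 MT cells in the WT range. The direction turned to 0.07 without the WT cell and the 5 MT cells with the most UMIs, and to 0.07 without the 29 MT cells above 1% rod markers.

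Receptors for GABA, glycine, and glutamate followed the same order in the sums. GABA receptors (18 genes, 8 with at least 20 UMIs) had a log2 ratio of -0.82 (-1.24 to -0.38), with 6 lower and 2 higher and 3 and 1 of them past 2-fold. *Gabra2*, the α2 subunit of the GABA-A receptor, was the most abundant, with 15 UMIs in WT and 72 in MT and a ratio of -1.31 (-2.13 to -0.40). Glycine receptors had a summed ratio of -1.27 (-2.08 to -0.36), of which *Glra3* gave 9 WT UMIs in 2 cells and 28 MT UMIs in 16. Their ratio was -0.39 (-1.28 to 0.58) without the MT cells above 1% rod markers and 2.21 (-0.69 to 7.69) in the 2 WT and 7 MT cells without bipolar, ganglion, cone, or Müller markers. Ionotropic glutamate receptors, led by the AMPA receptor subunit *Gria2* at -0.57 (-1.08 to -0.03), had a ratio of -0.37 (-0.74 to 0.03), which was 0.44 without the MT cells above 1% rod markers. The GABA receptor list lay between 372 and 2452 CPM in the WT cells and between 0 and 2695 in the MT cells, 35 of them within the WT range. Its ratio was 0.17 without the cells with the most UMIs and 0.01 without the MT cells above 1% rod markers.

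Genes of the release machinery were found in both libraries and were lower in the MT sum. Of 22 genes, 20 reached 20 UMIs, 15 of them lower and 5 higher in MT, with 2 past 2-fold each way, and the sum was at 12924 CPM in WT and 9280 in MT, a ratio of -0.48 (-0.60 to -0.35). *Syt1*, the calcium sensor of release, was found in all 53 cells, with 108 UMIs in WT and 812 in MT and a ratio of -0.66 (-0.95 to -0.36). *Snap25* (-0.72, -1.03 to -0.40) and *Vamp2* (-0.91, -1.30 to -0.51), both subunits of the SNARE complex, were lower too. *Sv2b*, a vesicle glycoprotein, was higher at 3.45 (0.95 to 8.76), from 1 WT UMI to 130 MT UMIs in 25 cells. It is also abundant outside these cells, at 334 CPM in WT and 360 in MT over all other kept barcodes. The WT cells lay close together, between 11855 and 13806 CPM, with 34 MT cells below them, 8 among them, and 6 above. Without the MT cells above 1% rod markers the ratio was -0.08 (-0.22 to 0.06).

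RNA encoded by mtDNA was higher in the sum of the MT cells. It made up 5.67%, 2.37%, 2.67%, 0.856%, and 6.95% of UMIs in the WT cells and from 0.470% to 19.9% in the MT cells, with a median of 5.83%. Of the MT cells 30 lay within the WT range, 17 above it, and 1 below it, so the groups overlapped. Summed, the 13 genes were at 40036 CPM in WT and 62561 in MT, a log2 ratio of 0.64 (0.57 to 0.71). All 12 with at least 20 UMIs were at or above 0 and none past 2-fold, with a median of 0.56, from *mt-Nd3* at 0.00 (-0.40 to 0.43) to *mt-Nd1* at 0.89 (0.64 to 1.15). *mt-Co1*, the catalytic subunit of complex IV, was at 4798 and 7372 CPM, a ratio of 0.62 (0.42 to 0.83). In glycinergic amacrine cells the same sum was at 55724 CPM in WT and 51874 in MT, a ratio of -0.10 (-0.12 to -0.09). The limit of 20% caps this measure, and 9 MT but 0 WT barcodes above it met the rest of the rule.

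*mt-Nd6*, the mutated gene, gave 3 UMIs in 2 WT cells and 14 UMIs in 13 MT cells, or 68.9 and 27.0 CPM, with a ratio of -1.35 (-3.19 to 1.09). A change of 1 base does not show in a count of UMIs, so the genotype could not be checked from these data. Without the MT cells above 1% rod markers the mtDNA ratio was 0.66, and without the cells with the most UMIs it was 1.18. Without the mtDNA limit it was 1.02. In the 2 WT and 7 MT cells without bipolar, ganglion, cone, or Müller markers it was 1.86 (1.68 to 2.05).

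Nuclear genes of complexes I to V lay near 0 in their sum. Of 77 OXPHOS genes, all of which reached 20 UMIs, 33 were higher and 44 lower in MT, 5 and 0 of them past 2-fold (6.49% and 0%, set beside 15.1% and 12.6% of all genes). Their sum was at 27341 CPM in WT and 26331 in MT, a ratio of -0.05 (-0.14 to 0.03). By complex, the ratio was -0.04 for complex I, 0.56 for complex II, 0.11 for complex III, -0.10 for complex IV, and -0.11 for complex V, and each interval held 0. That of complex II, with 14 WT UMIs, was wide, from -0.22 to 1.45. As a share of a cell's UMIs, these genes took 2.73%, 4.16%, 2.32%, 2.89%, and 2.01% in the WT cells and a median of 2.65% in the MT cells, which ranged from 0.369% to 4.61%. The plot of list shares shows the overlap.

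**Figure D3:**
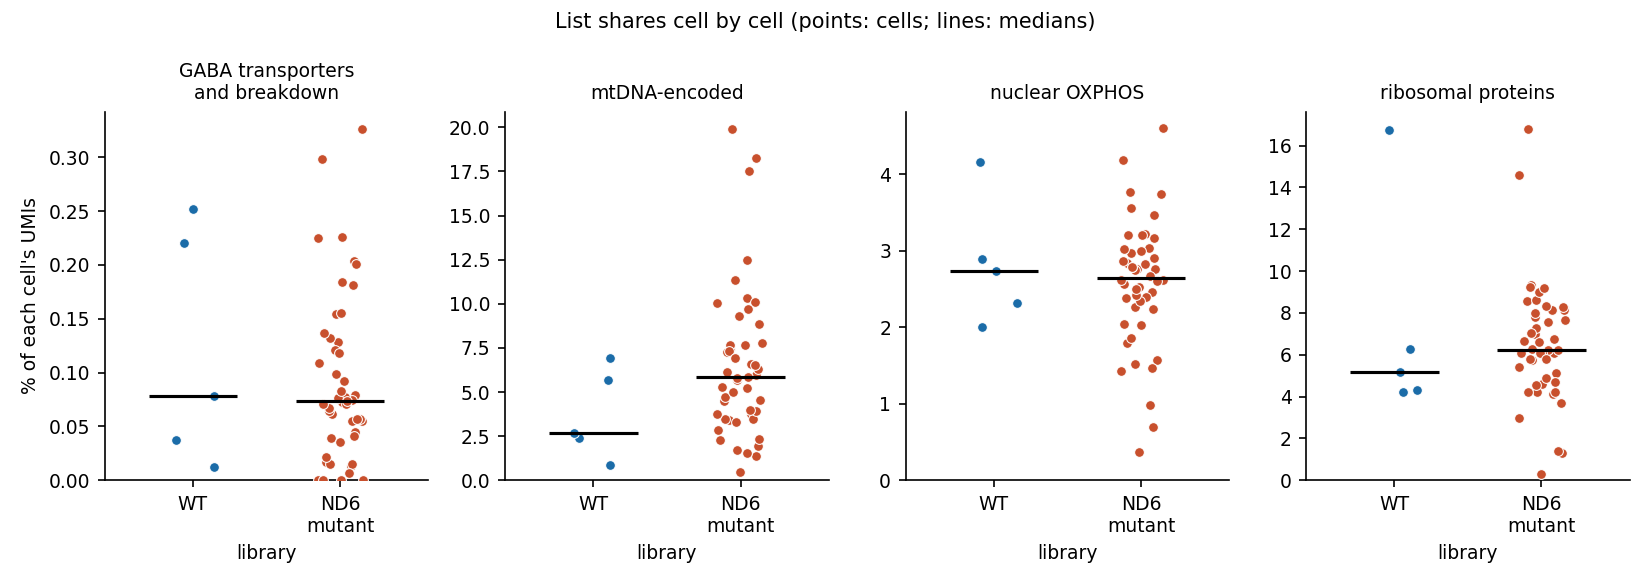
Share of UMIs, in percent, from GABA transporters and breakdown enzymes, mtDNA-encoded genes, nuclear OXPHOS genes, and cytosolic ribosomal proteins in each of 5 WT and 48 ND6 mutant cells, with lines at the medians. The mutant median is higher for the mtDNA-encoded genes and the ribosomal proteins, and in all panels most mutant cells lie within the WT range.

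Other metabolic lists had ratios between -0.24 and 0.30. Glycolysis had a ratio of -0.24 (-0.35 to -0.13), 15 of 19 genes being lower, beside 49.2% of all genes. *Pkm*, pyruvate kinase, was at 0.82 (0.38 to 1.30) and *Hk2*, a hexokinase, at 3.77 (1.27 to 9.08), from 1 WT UMI to 162 MT UMIs. *Hk2* stood at 460 and 540 CPM over all other kept barcodes. Antioxidant genes had a ratio of 0.30 (-0.04 to 0.67), of which *Gpx4*, the peroxidase of lipid peroxides, was at 0.73 (0.23 to 1.29), and the list stood at -0.06 without the MT cells above 1% rod markers. Heat shock genes were at -0.02 (-0.27 to 0.25), led by *Hsp90aa1*.

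Cytosolic ribosomal protein genes had a ratio of -0.05 (-0.11 to -0.00), which turned above 0 under 3 alternatives, with 36 higher and 45 lower of 82, 1 past 2-fold each way. The WT cells ranged from 4.22% to 16.8% of UMIs and the MT cells from 0.319% to 16.8%, with 1 WT cell at the upper end. Immediate early genes, which mark recent activity or stress, had a summed ratio of -0.45 (-0.81 to -0.06) but a median of 0.25 over 9 genes, or -0.05 with the gene at 0 in WT set to 3 counts. *Fos* gave 3, 0, 0, 15, and 0 UMIs in the WT cells, so that 1 cell set its WT level, and 91 UMIs in 20 MT cells, with a ratio of -1.23 (-1.97 to -0.42). *Egr1* (1.32, -0.28 to 3.62) pointed the other way.

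Outside these lists, the 10 genes with the highest ratio, taken from those that reached 100 UMIs and kept their sign with cells weighted equally, were *Pde6b*, *Pde6a*, *Vtn*, *Epb41l2*, *Rom1*, *Crx*, *Slc24a1*, *Casz1*, *Guca1a*, and *Guca1b*. They include the rod phosphodiesterase (*Pde6a*, *Pde6b*), the disc protein *Rom1*, the photoreceptor transcription factor *Crx*, the rod ion exchanger *Slc24a1*, and the activators of guanylate cyclase *Guca1a* and *Guca1b*. *Pde6b* led with 1 UMI in the WT cells and 640 UMIs in 37 MT cells, a ratio of 5.75 (3.27 to 11.06). All 10 had between 1 and 6 WT UMIs. In the MT library each was lower in these cells than in all other kept barcodes, with log2 ratios between -1.23 and -0.66.

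The 10 with the lowest ratio were *Fbxw7*, *Pcp4*, *Marcks*, *Rph3a*, *Ywhah*, *Bc1*, *Dnaja1*, *Gng3*, *6430548M08Rik*, and *Tmsb4x*. Their ratios are over all 48 MT cells and were not computed without the 29 above 1% rod markers. Without those 29 cells, 111 of 2039 genes (5.4%) were at least 2-fold lower, beside 684 of 5421 (12.6%) with them. *Pcp4* gave 62, 42, 32, 51, and 15 UMIs in the WT cells and from 0 to 75 in the MT cells, with a median of 1 and none in 21. Its ratio was -2.55 (-2.80 to -2.30), and 39 of 48 MT cells lay below the WT range in CPM. In glycinergic cells *Pcp4* was at 533 CPM in WT and 94.3 in MT, a ratio of -2.50. *Marcks*, a substrate of protein kinase C at the membrane, gave 11, 9, 41, 38, and 23 UMIs in the WT cells and a median of 3.5 in the MT cells, with a ratio of -2.17 (-2.47 to -1.86) and 38 MT cells below the WT range. In glycinergic cells its ratio was -0.20.

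*Bc1*, a noncoding RNA of neurons, had a ratio of -1.84 (-2.17 to -1.50), *Rph3a*, which binds Rab3 on vesicles, -1.90 (-2.44 to -1.33), and *Gng3*, a neuronal G protein subunit, -1.60 (-2.13 to -1.04). *Dnaja1*, a cochaperone, lay below the WT range in 42 MT cells, 10 of them with none of it. Its WT range was narrow, from 531 to 1117 CPM. These genes were picked by their low ratio. Counts of MT cells below the WT range, for *Dnaja1*, *Pcp4*, and *Marcks* alike, repeat that choice and are no further support. The share of all genes with such counts was not computed. *Fbxw7*, part of a ubiquitin ligase, had the lowest ratio at -2.61 (-3.20 to -2.00), but 1 of 5 WT cells held none of it, and no MT cell lay outside the WT range.

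Set beside the glycinergic cells of the same libraries, several lists had like ratios in both classes and others did not. Release machinery was at -0.48 in GABAergic and -0.50 (-0.54 to -0.47) in glycinergic cells, GABA receptors at -0.82 and -0.76 (-0.90 to -0.62), and glycolysis at -0.24 and -0.18 (-0.21 to -0.15). Without the MT cells above 1% rod markers, the GABAergic release machinery and GABA receptor ratios were -0.08 and 0.01. Rod markers were at 4.14 and 0.94 (0.92 to 0.96). GABA synthesis and handling was at -1.05 and -0.39. Both classes were chosen on genes of that list, so this contrast is partly fixed by the rule. Without the genes of the rule, the rest of it was at -0.69 (-1.09 to -0.26) and -0.42 (-0.71 to -0.12), and these intervals overlapped. Among other lists, intervals lay apart for early genes (-0.45 and -1.11) and for calcium binding and excitability (-0.30 and -0.72). The same held for neuropeptides (-2.88 and -1.47), nuclear OXPHOS (-0.05 and -0.24), nuclear noncoding RNAs (-0.24 and -0.01), and bipolar markers (0.87 and -1.20). The GABAergic neuropeptide value rested on *Cartpt*, with most of its WT UMIs in 2 of 5 cells. In glycinergic MT cells *Cartpt* gave 443 of the 962 UMIs of that list. *Cartpt* alone was at -3.09 in GABAergic and -2.14 in glycinergic cells. For mtDNA-encoded genes the classes pointed opposite ways, and for ribosomal proteins the glycinergic ratio was 0.18 (0.16 to 0.19). With 1 library per genotype, none of these differences between the classes could be tested.

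**Figure D4:**
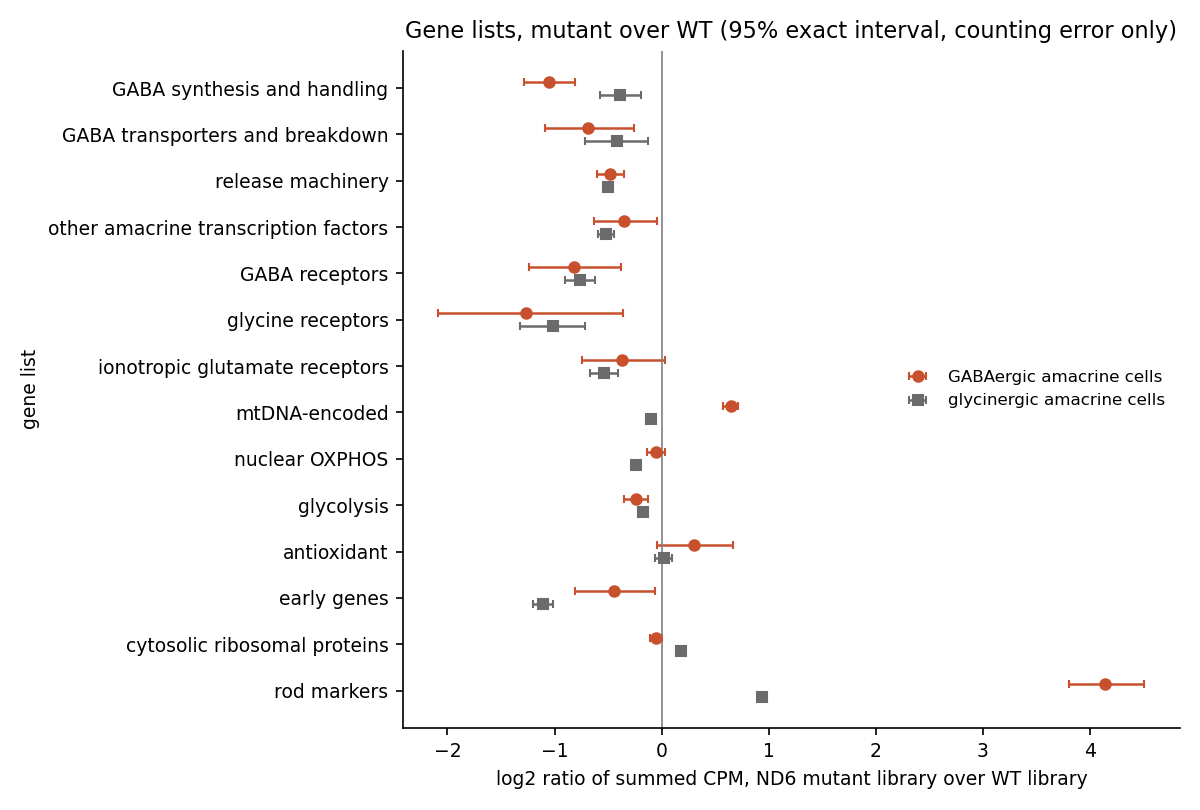
Log2 ratio of summed CPM, ND6 mutant over WT library, for 14 gene lists in GABAergic (circles) and glycinergic (squares) amacrine cells, with 95% exact intervals for counting error. Most lists lie left of 0 in both classes, mtDNA-encoded genes lie at 0.64 and -0.10, and rod markers at 4.14 and 0.94.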

How the data were processed

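Retinal cells of 1 WT and 1 MT library were measured by droplet-based 3′ scRNA-Seq. Per the labels and the submitters' processing notes, reads were aligned to mm10 and counted with Cell Ranger 3.0.2, and the authors deposited raw UMI counts per gene and barcode, unfiltered and not normalized. The annotation release was not given in the sources used here. The files hold 32285 gene identifiers, of which 99.6% are in GENCODE M21, which gave gene positions, and 77958836 WT and 80358255 MT UMIs in all.

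Barcodes were filtered with the limits of the study's methods and the cells chosen as described above. UMIs were summed per library over the cells and divided by all their UMIs (CPM). Genes were compared with at least 20 UMIs over both libraries. A count of 0 was set to 3 counts where genes were ranked or counted past 2-fold. Shares have exact Clopper-Pearson, sums exact Poisson, and ratios exact conditional 95% intervals (scipy 1.17.1), which cover counting error only. Cells of a library are not replicates, so no test was run. The functions were tested on simulated data. The level of *Gad1* and *Gad2* in free RNA was added after seeing the data.

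The genes named are those of the rule, the markers, and the lists, the 20 leading genes, and, of other genes with at least 100 UMIs, the 10 highest and 10 lowest by log2 ratio with the same sign when cells were weighted equally. The OXPHOS list (77 nuclear genes of structural subunits) and the antioxidant list were drawn after those of the study and are shorter, since assembly factors and some subunits were left out, and the other lists are from general knowledge. The cells, lists, and genes were chosen with earlier results of these data known. Upstream sequences are from RefSeq (GRCm38.p6), which held a window for 16 of the 20 leading genes. Values of some genes are not reported here.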

Additional observations from a re-analysis of the deposited data

Results flagged for a closer look

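The mtDNA-encoded genes pointed opposite ways in the classes of amacrine cells, with a summed log2 ratio of MT over WT of 0.64 in GABAergic and -0.10 in glycinergic cells. Ribosomal protein genes did so the other way round, at -0.055 in GABAergic and 0.18 in glycinergic cells. Each of the 4 intervals for counting error lay apart from 0, but the difference between the classes was not tested, and the GABAergic values rest on 5 WT cells. The GABAergic ribosomal ratio turned to 0.033 without the mtDNA limit, to 0.058 when scaled by the median of ratios, and to 0.35 without cells holding bipolar, ganglion, cone, or Müller markers, so that its sign depended on the setting.

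Above the limit of 20% mtDNA-encoded UMIs, 9 MT barcodes met the rest of the rule, against 0 in WT. They entered only the values given without that limit.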

How the results depend on the processing

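Many values moved with the choice of cells. Those below are shares or summed log2 ratios of MT over WT, and the cause of a change was not tested unless stated. Without cells holding bipolar, ganglion, cone, or Müller markers (2 WT and 7 MT cells left, the latter still with 2.85% rod markers), the MT share was 0.0381%, the log2 ratio of the shares 1.25, mtDNA-encoded genes 1.86, GABA synthesis and handling 0.12, GABA transporters and breakdown 2.21, release machinery -0.31, GABA receptors 0.67, ionotropic glutamate receptors 0.52, glycine receptors 2.21, ribosomal proteins 0.35, and early genes -1.37. Without the tenth of cells with the most UMIs (1 WT and 5 MT cells), mtDNA-encoded genes were at 1.18, nuclear OXPHOS genes at -0.18, GABA synthesis and handling at -0.49, GABA transporters and breakdown at 0.070, GABA receptors at 0.17, ionotropic glutamate receptors at 0.38, ribosomal proteins at -0.24, and amacrine transcription factors outside the rule at 1.15. Without the 29 MT cells above 1% rod markers, chosen after seeing the data, GABA synthesis and handling was at -0.30, GABA transporters and breakdown at 0.067, release machinery at -0.079, GABA receptors at 0.0055, ionotropic glutamate receptors at 0.44, ribosomal proteins at -0.36, antioxidant genes at -0.057, and amacrine transcription factors at 0.13, or 0.22 outside the rule.

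With cells weighted equally, mtDNA-encoded genes were at 0.81, GABA synthesis and handling at -0.72, ionotropic glutamate receptors at 0.14, and ribosomal proteins at -0.16. Scaling by the median of ratios, which was -0.11, gave 0.76 for mtDNA-encoded genes, 0.059 for nuclear OXPHOS genes, and 0.058 for ribosomal proteins. Asking for 3 *Gad1* plus *Gad2* UMIs gave 0.57 for mtDNA-encoded genes and -0.14 for ribosomal proteins, and lifting the mtDNA limit gave 1.02 and 0.033. With barcodes thinned to 1000 UMIs, the MT share was 0.0841% and the log2 ratio of the shares 1.62 (-0.27 to 4.09). The genes at least 2-fold higher and lower numbered 426 and 223 of 2340 (18.2% and 9.5%) with a floor of 50 UMIs. With a floor of 100, also chosen after seeing the data, they numbered 188 and 76 of 1010 (18.6% and 7.5%). Without the MT cells above 1% rod markers they numbered 213 and 111 of 2039 (10.4% and 5.4%). With a floor of 5, 3767 of 10153 were lower. There a gene at 0 in WT, set to 3 counts, lies above a few MT UMIs by construction. The rod and mtDNA ratios stayed above 0 under every alternative run, and the rod ratio was lowest at 0.76 without the MT cells above 1% rod markers. Depth limits the WT side to levels above 68.9 CPM. No paired analysis was possible because each genotype has 1 library.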

Other observations

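Transcription factors of amacrine cells outside the rule (20 genes, 12 with at least 20 UMIs) were at 2479 CPM in WT and 1949 in MT, a log2 ratio of -0.35 (-0.63 to -0.05), with 5 lower, 3 higher, and 4 without a WT UMI. The median over these genes was 0.36, or -0.14 with genes at 0 set to 3 counts, and the former differed in sign from the sum. With the 3 factors of the rule included, the ratio of the sum was -0.71 (-0.91 to -0.51). Outside the rule the ratio turned to 1.15 without the cells with the most UMIs and to 0.22 without the MT cells above 1% rod markers, and with the rule's factors the latter gave 0.13. *Etv1* gave 35 UMIs in 2 WT cells and 33 UMIs in 6 MT cells, and *Nr4a2*, an orphan nuclear receptor, 25 UMIs in 3 WT cells and 42 UMIs in 10 MT cells, so both were spread unevenly over the cells. *Meis2* was higher at 2.87 (1.31 to 5.16), with 3 UMIs in 1 WT cell and 261 UMIs in 35 MT cells. *Maf* gave 98 UMIs in 12 MT cells and 0 in WT, at least 2.75-fold higher, and *Bhlhe22* gave 59 UMIs in 19 MT cells and 0 in WT, at least 1.65-fold higher.

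Genes of calcium binding and excitability (23 genes, 20 with at least 20 UMIs) had a ratio of -0.30 (-0.48 to -0.12), with 11 lower, 6 higher, and 3 without a WT UMI. *Celf4*, a neuronal RNA-binding protein, was found in 5 of 5 WT and 46 of 48 MT cells at a ratio of -1.34 (-1.66 to -1.01). *Atp1b1*, the β1 subunit of the sodium pump, was at -0.98 (-1.47 to -0.45). *Map1b*, which binds microtubules, was at 3.32 (1.95 to 5.20), from 4 WT UMIs to 474 MT UMIs, and stood at 1429 CPM in WT and 1227 in MT over all other kept barcodes. Nuclear noncoding RNAs were at -0.24 (-0.30 to -0.17). *Malat1* was the most abundant of them, with 126, 26, 447, 64, and 1063 UMIs in the WT cells and from 6 to 1693 in the MT cells.

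The neuropeptide and cotransmitter list had a ratio of -2.88 (-3.08 to -2.68), of which *Cartpt* gave 329 of 333 WT UMIs and 460 of 538 MT UMIs. The neuropeptide value rested on 2 of 5 WT cells. The 2 genes of glycine handling, *Slc6a9* among them, were at -0.82 (-2.34 to 1.16).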
